A study of Mus musculus with 12 samples.

Results

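The p53 pathway and DNA damage response were followed here through 35 genes out of 54232 counted by RNA-seq in B16F10 cells, a mouse melanoma line of C57BL/6 origin. The 35 genes were chosen by name, with earlier results of these data known. The set holds Trp53 and its regulators, genes that p53 is known to switch on, and sensors, kinases and repair factors of DNA damage. Cells were sequenced in 4 groups of 3 libraries. WT was the untreated parental line grown in culture. ITF1, ITM and Rel were lines grown out of tumors that had come back in mice after immunotherapy, each a separate line and cultured to confluency before RNA was taken. Lyso was the parental line incubated with lysosomes derived from T cells, for 48 h by the labels and for a shorter time by the study's methods, on coated plates that the methods describe for this group only. Tumor was B16F10 cells sorted by FACS out of relapsed tumors and lysed without culture, numbered 1, 3 and 4. All groups share the B16F10 origin. The labels give 6 weeks as the age of the mice, while the study's methods give an older age. The labels do not say whether the libraries of WT or Lyso came from separate cultures, so the spread between these libraries may be technical. The p-values come from one fit in which each gene's spread within groups is shared by all 4 groups. They therefore also carry the spread between the 3 separate relapsed lines, in comparisons without these lines as well.

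p53 is a transcription factor that is held at a low level by Mdm2, an E3 ligase that p53 itself induces, and that is released when the kinases Atm, Atr, Chek1 and Chek2 signal broken or stalled DNA. It binds pairs of a short palindromic motif, the p53 half-site, and raises genes that stop the cell cycle (Cdkn1a, Btg2, Ccng1), that promote apoptosis (Perp, Aen, Ei24, Zmat3) or that repair DNA (Xpc, Ddb2, Rrm2b). Several of these genes, among them Btg2, Plk2, Plk3 and the Gadd45 genes, can also be induced by serum or stress without p53.

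Totals ranged from 1667398 counts on genes in WT 1 to 16402629 in ITM, with WT 2 at 2350129, WT 3 at 16384021, Lyso at 10895611 to 12675277 and Tumor at 3102442 to 5049496. Levels are given as CPM, counts scaled to effective library sizes, and a level of 3 counts ranged over the libraries from 0.177 CPM (WT 3) up to 1.7 CPM (WT 1), so low members were measured poorly in WT 1. A gene was called at an adjusted p under 0.05 in edgeR's quasi-likelihood test, fitted to all 12 libraries and adjusted over the 14924 genes tested. Of the 35 genes, 34 were tested. The 10 melanocyte markers were present in every library, with a summed level of 20546 to 22660 CPM in Tumor and 19811 to 28448 CPM in WT. In Tumor, 10 of 10 fibroblast markers were called higher than in WT, with a summed level of 7707 to 10709 CPM against 30.0 to 39.5 CPM in WT. Of these 10, Lum and Thy1 had no count in any WT library and could pass the filter on low counts only through another group. Only 4 were above 3 counts in every WT library, so the count of 10 depends in part on the filter. Also in Tumor, 20 of 20 immediate early genes were called higher than in WT, with 5788 to 7220 CPM against 555 to 672 CPM. These are bulk libraries, in which fewer cells of a type and less RNA per cell cannot be told apart.

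The p53 half-site was searched on both strands of the window from 250 bases before to 50 bases after each start site in RefSeq (GRCm38.p6). Windows were found for 28 of the 35 genes, 33 windows in all, and 10 of the 33 windows (30.3%) held a half-site, against 8.36% of all 32851 windows in the table. The 10 windows belonged to 9 genes: Aen, Ccng1, Cdkn1a, Ei24, Gadd45a, Mdm2, Polk, Sesn1 and Trp53. Windows of Ccng1, Aen and Ei24, which were lower in Tumor, and of Btg2, which was higher, are printed. They come from genes that differed from WT and show windows with the motif and one without it. Phlda3, Tigar and Chek2 were also lower in Tumor, and their windows, which are not printed, held no half-site. Capitals mark the half-site.
Ccng1 (chr11:40755237-40755536, minus strand): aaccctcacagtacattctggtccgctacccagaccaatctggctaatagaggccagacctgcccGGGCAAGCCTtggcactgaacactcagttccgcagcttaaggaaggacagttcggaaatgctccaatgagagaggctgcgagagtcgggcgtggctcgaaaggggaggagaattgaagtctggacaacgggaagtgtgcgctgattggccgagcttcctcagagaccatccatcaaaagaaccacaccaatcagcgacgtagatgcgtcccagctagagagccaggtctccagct
Aen (chr7:78895677-78895976, plus strand): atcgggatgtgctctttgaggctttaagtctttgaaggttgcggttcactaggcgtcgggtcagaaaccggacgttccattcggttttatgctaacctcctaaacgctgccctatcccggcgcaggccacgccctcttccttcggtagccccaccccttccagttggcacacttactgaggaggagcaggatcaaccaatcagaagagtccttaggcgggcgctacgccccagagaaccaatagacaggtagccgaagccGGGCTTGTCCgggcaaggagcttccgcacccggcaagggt
Ei24 (chr9:36797285-36797584, minus strand): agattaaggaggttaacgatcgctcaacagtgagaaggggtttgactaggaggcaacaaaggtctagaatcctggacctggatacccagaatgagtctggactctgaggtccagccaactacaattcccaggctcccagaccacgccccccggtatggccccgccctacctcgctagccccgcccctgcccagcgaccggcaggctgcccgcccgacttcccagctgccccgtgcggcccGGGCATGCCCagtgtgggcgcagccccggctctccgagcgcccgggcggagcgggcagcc
Btg2 (chr1:134079106-134079405, minus strand): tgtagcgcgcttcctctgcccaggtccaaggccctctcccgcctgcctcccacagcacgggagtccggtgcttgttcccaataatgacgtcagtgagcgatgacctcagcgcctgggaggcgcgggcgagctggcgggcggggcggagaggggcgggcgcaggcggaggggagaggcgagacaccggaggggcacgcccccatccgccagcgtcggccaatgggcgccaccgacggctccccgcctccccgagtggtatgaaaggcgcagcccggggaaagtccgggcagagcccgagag

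In Ccng1 the half-site starts at -185 from the start site, in Ei24 at -10, and in Aen at 11 of the start site printed. A second Aen window, which overlaps the first, holds the same match. In Cdkn1a the window at chr17:29090729-29091028 holds 2 half-sites, at -73 and -51 from its start site. The window of another Cdkn1a start site, at chr17:29093519-29093818, holds 0. Mdm2 holds one at -186. Among the genes that differed between Tumor and WT, 3 of the 6 lower genes with a window held a half-site, and 0 of the 3 higher genes did (Btg2, Plk2 and Gadd45b). Of the members not called, 6 of the 18 with a window held one, and of all members 9 of 28 did. These counts are small and their differences were not tested. Other motifs were found in fewer of the 33 windows. A CArG box was in 1 (Tigar, at -77), or 3.03% against 1.63% of all windows. The STAT motif TTCNNNGAA was in 1 (3.03% against 8.30%) and the CHR motif TTTGAA in 2 (6.06% against 17.9%). An E2F site, searched as TTTCCCGC and TTTGGCGC, was in 3 (Brca2, Cdkn2a and Chek2), or 9.09% against 1.56%. These shares rest on few windows and their differences were not tested. A match in these letters is a description of the window, and p53 also binds sites outside it.

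The transcript of p53 itself varied little, from 117 to 158 CPM over the 12 libraries. Trp53 (chr11:69580359-69591873 in GRCm38, as are the positions of genes that follow) stood at 155, 152 and 158 CPM in WT, 145, 143 and 155 CPM in Tumor, and 155, 128 and 129 CPM in Lyso. ITF1 held 148, ITM 145 and Rel 117 CPM. The groups overlapped apart from the relapsed lines, which all lay below WT, and no comparison called the gene, with a log2 difference of -0.07 ± 0.12 (SE) in Tumor against WT and -0.17 ± 0.12 in Lyso against WT (adjusted p = 0.74 and 0.494).

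Mdm2, the inhibitor that p53 induces, was measured at 195, 152 and 192 CPM in WT. All Lyso libraries (121, 120 and 114 CPM) and all Tumor libraries (127, 117 and 120 CPM) were below the lowest WT library. The relapsed lines parted: ITF1 held 312 CPM, more than any other library, whereas ITM and Rel held 117 and 123 CPM. Neither difference from WT passed the test, at -0.61 ± 0.29 for Lyso and -0.57 ± 0.30 for Tumor on the log2 scale (adjusted p = 0.296 and 0.212). Both were called lower without a filter on low counts, with only the groups compared, with the replicate block or without ITF1. The lowest adjusted p over the alternatives was 0.00757 for Lyso and 0.004 for Tumor. Leaving out ITF1 took the difference of Mdm2 between Tumor and the relapsed lines from -0.60 to 0.01 on the log2 scale.

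Cdkn2a, which encodes p16Ink4a and the Mdm2 antagonist p19Arf, had 0 counts in all 12 libraries, which together hold 111989529 counts on genes and allow a mean level of up to 0.0268 CPM (counting error only). B16 lines are known to lack this locus. Its neighbours on chromosome 4 were looked at after this value was seen. Cdkn2b, the next gene, had 2 counts in 1 library, while Mtap (176 to 387 CPM) and Klhl9 (85.4 to 151 CPM), which both lie on the lower-coordinate side of the pair, were expressed in all 12 libraries.

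**Figure D1:**
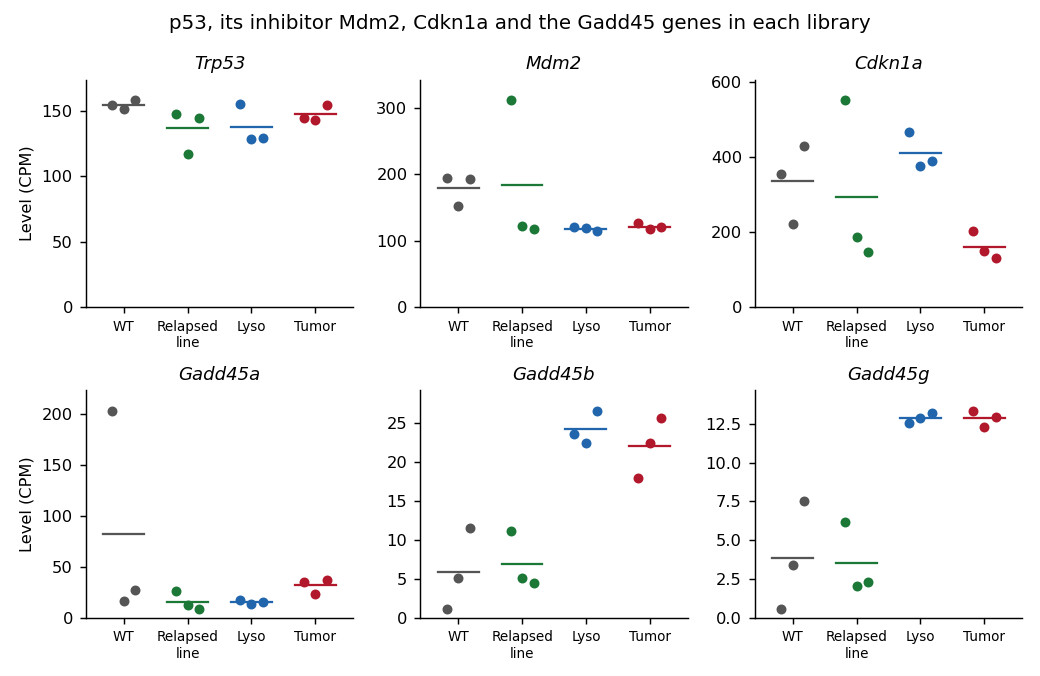
Level of Trp53, Mdm2, Cdkn1a and the Gadd45 genes in each library, in CPM on a linear axis from 0, by group; points are libraries in the order WT 1 to 3, ITF1, Rel, ITM, Lyso 1 to 3 and Tumor 1, 3, 4, and bars are group means of 3. Trp53 is flat, Mdm2 and Cdkn1a are highest in ITF1 at 312 and 552 CPM, Gadd45a is high in WT 1 alone at 203 CPM, and Gadd45b and Gadd45g are higher in every Lyso and Tumor library than in any WT library or relapsed line.

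Which of these genes differed in tumor cells taken directly from the mouse was asked by comparing Tumor with WT. Of the 34 genes, 7 were called lower and 3 higher, beside 6.94% and 12.1% of all genes tested, so 20.6% of the members were lower and 8.82% were higher. The median log2 difference of the 34 was 0.00 and their median absolute difference 0.51, against 0.00 and 0.33 over all genes. The libraries of the groups did not overlap for 10 members that were lower and 5 that were higher in Tumor, beside 15.1% and 21% of all genes in these directions. Lower were the growth arrest gene Ccng1, the survival and death genes Phlda3, Aen, Zmat3 and Ei24, the metabolic gene Tigar and the kinase Chek2. Higher were Btg2, Plk2 and Gadd45b, which are grouped here under growth arrest like Ccng1. Of the 9 genes of that group, 3 were thus higher, 1 was lower and 5 were not called.

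Ccng1 (chr11:40748552-40755311) encodes cyclin G1, which recruits a phosphatase to Mdm2. Its level was 421, 303 and 421 CPM in WT and 149, 134 and 112 CPM in Tumor, while Lyso (429, 473 and 470 CPM) and the relapsed lines (462 in ITF1, 300 in ITM and 264 in Rel) were in or above the WT range apart from ITM and Rel. Every Tumor library was below every cultured library. The gene was 2.90-fold lower in Tumor than in WT (log2 difference -1.54 ± 0.21, adjusted p = 0.000284).

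Phlda3 (chr1:135766119-135769136), a repressor of Akt signalling, stood at 144, 111 and 173 CPM in WT and at 65.0, 56.6 and 38.8 CPM in Tumor. Lyso (147, 159 and 164 CPM) and the relapsed lines (102 to 148 CPM) were near WT. Tumor was 2.69-fold lower than WT (log2 difference -1.43 ± 0.21, adjusted p = 0.000477).

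Aen (chr7:78895854-78911209), an exonuclease that acts on DNA in apoptosis, was at 70.8, 50.7 and 57.4 CPM in WT and at 30.6, 30.2 and 26.8 CPM in Tumor. Its levels were 60.7, 65.9 and 60.7 CPM in Lyso and 46.9 to 62.7 CPM in the relapsed lines, so that Tumor alone was apart. The gene was 2.03-fold lower in Tumor than in WT (log2 difference -1.02 ± 0.15, adjusted p = 0.000514).

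Zmat3 (chr3:32334792-32366014), an RNA-binding protein, was measured at 118, 84.4 and 104 CPM in WT, at 73.1, 53.1 and 54.8 CPM in Tumor and at 135, 119 and 122 CPM in Lyso. The relapsed lines lay between 77.3 and 112 CPM. Tumor was below and Lyso above each WT library, and the fall in Tumor was 1.69-fold (log2 difference -0.76 ± 0.17, adjusted p = 0.00844).

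The other 3 falls were smaller. Ei24 (chr9:36779159-36797393), a membrane protein of the endoplasmic reticulum, was at 170, 152 and 157 CPM in WT and 120, 116 and 103 CPM in Tumor (log2 difference -0.50 ± 0.12, adjusted p = 0.00945). Tigar (chr6:127085116-127109557), a phosphatase that lowers glycolysis, was at 55.5, 57.0 and 53.4 CPM in WT and 41.3, 40.7 and 42.6 CPM in Tumor (-0.41 ± 0.12, adjusted p = 0.0286). Chek2 (chr5:110839979-110874145), the checkpoint kinase downstream of Atm, was at 50.4, 24.9 and 28.4 CPM in WT and 21.1, 20.5 and 19.8 CPM in Tumor (-0.71 ± 0.22, adjusted p = 0.0422). The Chek2 difference leaned on WT 1, its highest library: without WT 1 it was -0.40 on the log2 scale, with an adjusted p of 0.0823. In Lyso, Ei24 was at 179, 185 and 188 CPM, Tigar at 52.4, 56.5 and 52.4 CPM and Chek2 at 27.6, 25.7 and 24.9 CPM. The relapsed lines held 146 to 181 CPM of Ei24, 49.1 to 64.4 CPM of Tigar and 23.1 to 30.5 CPM of Chek2, so all 9 cultured libraries were above Tumor for each gene.

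Btg2 (chr1:134075170-134079120), an antiproliferative partner of the deadenylase complex, showed the opposite. It was at 19.8, 5.07 and 9.08 CPM in WT and at 56.6, 44.7 and 56.5 CPM in Tumor, with 11.9, 14.4 and 15.2 CPM in Lyso and 4.43 to 6.99 CPM in the relapsed lines. Tumor was above every other library, 4.99-fold higher than WT (log2 difference 2.32 ± 0.33, adjusted p = 0.00042).

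Plk2 (chr13:110395046-110400844), a polo-like kinase of centrosome duplication, was at 39.6, 32.9 and 75.6 CPM in WT, 105, 108 and 121 CPM in Tumor, 39.9, 41.1 and 36.0 CPM in Lyso and 17.9 to 33.9 CPM in the relapsed lines. It was 2.16-fold higher in Tumor than in WT (log2 difference 1.11 ± 0.28, adjusted p = 0.0157). Its relative Plk3 was at 28.3, 13.1 and 9.49 CPM in WT and 29.6, 19.9 and 23.1 CPM in Tumor, groups that overlapped through WT 1 (0.63 ± 0.36 on the log2 scale, adjusted p = 0.253). Without WT 1, Plk3 was called higher in Tumor (adjusted p = 0.015).

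**Figure D2:**
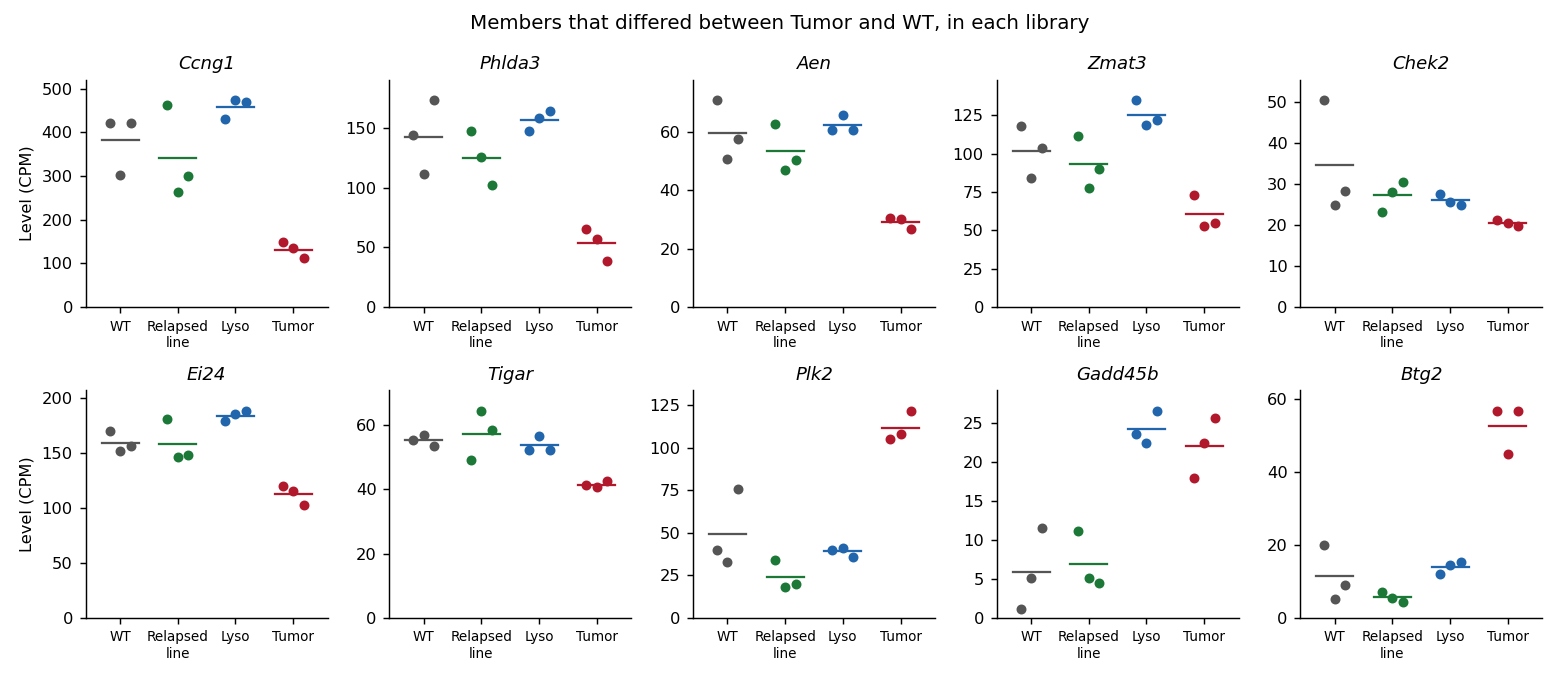
Level of the 10 members called between Tumor and WT, in CPM on linear axes from 0, one panel a gene in order of their difference; points are libraries and bars are means of 3. The 7 genes from Ccng1 to Tigar are lower in every Tumor library than in all 9 cultured libraries, Plk2 and Btg2 are higher than in all 9, and Gadd45b is high in Lyso as well as in Tumor.

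The 3 Gadd45 genes encode small stress proteins that bind kinases and Pcna. Gadd45b (chr10:80930073-80932204) was at 1.13, 5.07 and 11.6 CPM in WT, from only 2 and 12 counts in WT 1 and WT 2. In Lyso it was at 23.6, 22.4 and 26.5 CPM and in Tumor at 17.9, 22.3 and 25.7 CPM, all above WT, while the relapsed lines held 4.43 to 11.1 CPM. It was called in Tumor against WT (log2 difference 1.55 ± 0.46, adjusted p = 0.033) and not in Lyso against WT (1.68 ± 0.45, adjusted p = 0.0515); Tumor and Lyso differed by -0.13 ± 0.41 on the log2 scale (adjusted p = 0.852), an interval that leaves room for a difference in either direction. Against WT 3 alone, the deep WT library, the Gadd45b difference in Lyso was 1.05 (adjusted p = 0.266), and without WT 3 the differences were 2.86 in Lyso and 2.73 in Tumor.

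Gadd45g followed Gadd45b. It was at 0.566, 3.38 and 7.55 CPM in WT, at 12.5, 12.9 and 13.2 CPM in Lyso, at 13.3, 12.3 and 12.9 CPM in Tumor and at 2.08 to 6.14 CPM in the relapsed lines. No Lyso or Tumor library overlapped with WT, but the WT spread was wide and neither difference passed the test. The log2 difference was 1.36 ± 0.47 in Lyso (adjusted p = 0.136) and 1.36 ± 0.49 in Tumor (adjusted p = 0.074). Both were called higher without a filter on low counts or without WT 3. In Tumor, DESeq2 and the fit without ITF1 also gave the call.

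Gadd45a, the member of the family best known as a p53 target, was set by 1 library. It was at 203 CPM in WT 1, from 358 counts, and at 16 and 27.5 CPM in WT 2 and WT 3, beside 17.2, 13.9 and 15.1 CPM in Lyso, 35.1, 23.6 and 37.2 CPM in Tumor and 8.27 to 26.1 CPM in the relapsed lines. The Gadd45a difference between Tumor and WT was -1.29 ± 0.73 on the log2 scale (adjusted p = 0.245) and turned to 0.47 without WT 1 (adjusted p = 0.432). Exons of a gene on the other strand cover 19.1% of its exons, and the strand setting of the counting is not given in the sources used here, so part of its reads may not be its own.

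Cdkn1a (chr17:29090976-29100727), encoding the kinase inhibitor p21 and the most used readout of p53, was not called between Tumor and WT although the libraries did not overlap. Its level was 354, 222 and 430 CPM in WT, 203, 149 and 131 CPM in Tumor, and 466, 375 and 390 CPM in Lyso. Tumor was 2.10-fold lower than WT (log2 difference -1.07 ± 0.41, adjusted p = 0.093) and 2.56-fold lower than Lyso, which passed the test (-1.35 ± 0.41, adjusted p = 0.0305). The missing call against WT depended on the setting. Cdkn1a was called lower than WT without a filter on low counts, with only the groups compared and with the replicate block. Leaving out ITF1 or ITM also gave the call, and the lowest adjusted p over the alternatives was 8.55e-05. The other growth arrest inhibitor, Cdkn1b or p27, was at 81.9 to 211 CPM in WT and 157 to 163 CPM in Tumor. It was called in no comparison of the fit to all 12 libraries. Without WT 1, its highest WT library, Cdkn1b was called higher in Tumor against WT and against Lyso. With only the groups compared, it was also called against Lyso.

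**Figure D3:**
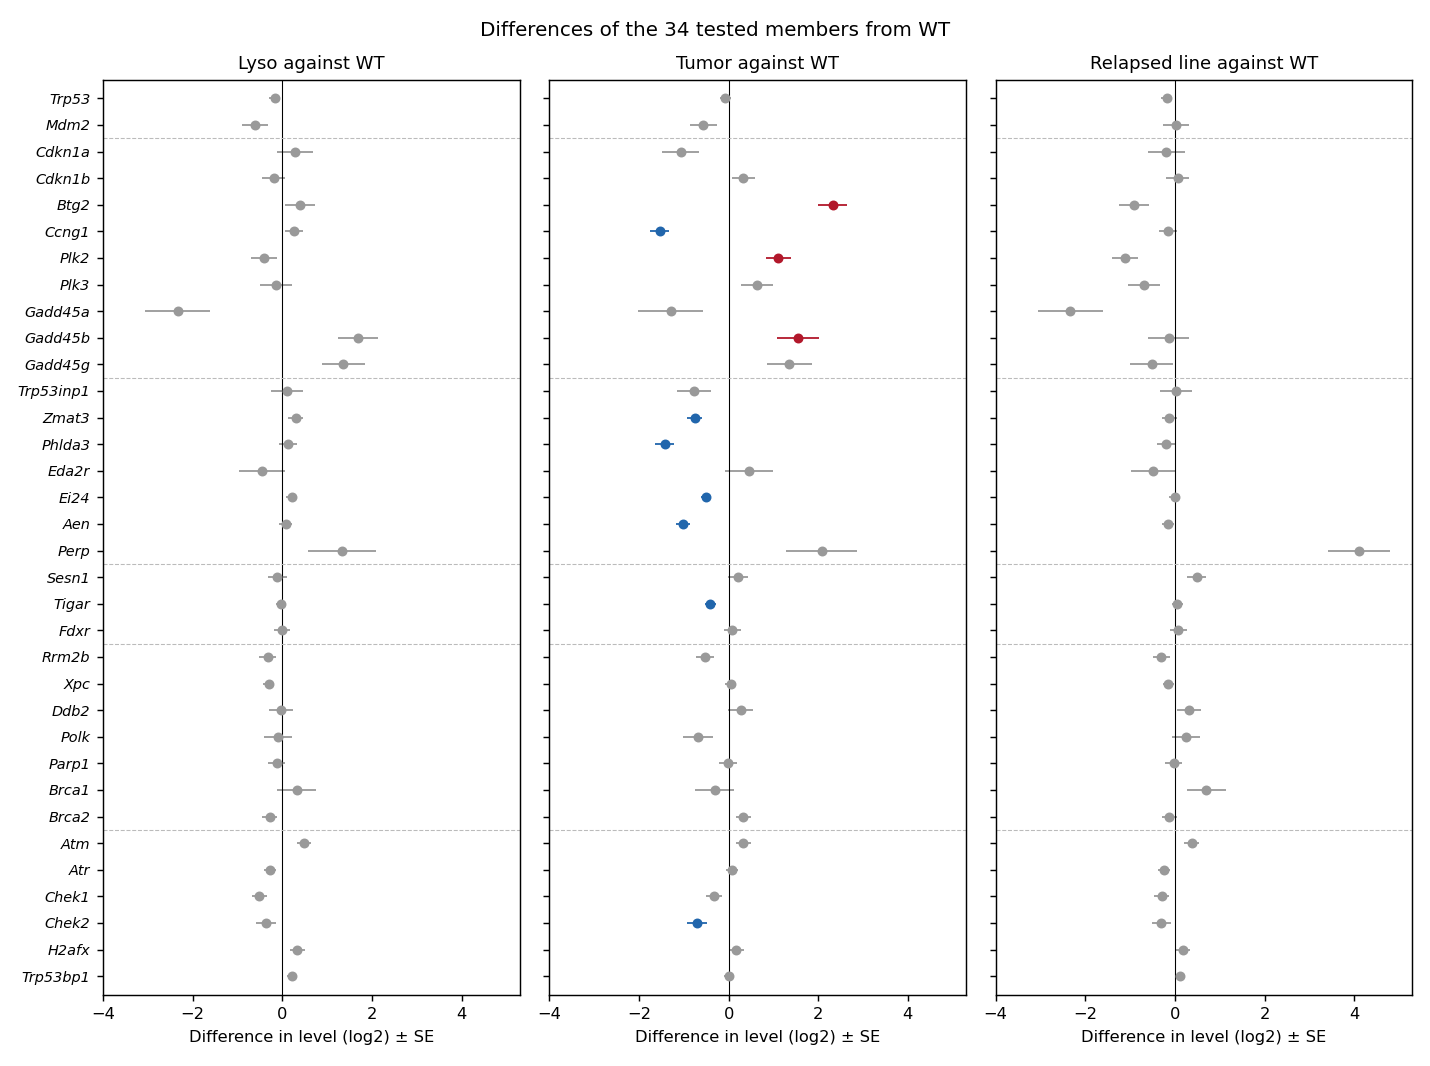
Log2 difference of each of the 34 tested members from WT in Lyso, in Tumor and in the relapsed lines, ± SE from one fit of 12 libraries; blue points are called lower, red points higher and grey points are not called, and dashed lines part the groups of genes by role. Called genes appear in Tumor alone, 7 lower and 3 higher.

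In Tumor against WT, 0 of the 7 repair and nucleotide supply genes were called, their median log2 difference being -0.01, and Chek2 was the only one of 6 sensing and checkpoint genes, with a median of 0.04. Atm, the kinase that answers double-strand breaks, was at 34.5 to 56.1 CPM in WT, 50.7 to 66.6 CPM in Tumor and 62.7 to 68.8 CPM in Lyso, and Chek1, which acts under Atr at stalled forks, at 41.3 to 57.8, 36.1 to 40.5 and 30.7 to 35.7 CPM. In Lyso the Atm libraries were all above and the Chek1 libraries all below WT, without a call (0.49 ± 0.16 and -0.52 ± 0.17 on the log2 scale, adjusted p = 0.106 and 0.109). Atr was at 32.5 to 41.3 CPM in WT and 36.5 to 37.8 CPM in Tumor. Of the repair genes, the ribonucleotide reductase subunit Rrm2b was at 25.8 to 49.8 CPM in WT and 23.1 to 29.3 CPM in Tumor (-0.52 ± 0.20, adjusted p = 0.0849), and the lesion bypass polymerase Polk at 22.8 to 48.7 and 17.2 to 25.6 CPM (-0.68 ± 0.33, adjusted p = 0.171). The damage recognition genes Xpc and Ddb2 and the poly(ADP-ribose) polymerase Parp1 differed by 0.05, 0.27 and -0.01 on the log2 scale, the antioxidant gene Sesn1 and the ferredoxin reductase Fdxr by 0.21 and 0.09, and Brca1 by -0.31, and none of these was called. Brca2, a homologous recombination gene, was at 24.9 to 30.6 CPM in WT and 26.7 to 40.7 CPM in Tumor. Trp53bp1, a reader of chromatin at breaks, was at 67.4 to 71.8 CPM in WT and 68.9 to 72.3 CPM in Tumor. H2afx, the histone phosphorylated at breaks, was at 62.7 to 88.9 CPM in WT and 68.3 to 90.2 CPM in Tumor, and its transcript says nothing of its phosphorylation. Exons of genes on the other strand cover 23.8% of the exons of Ddb2, 15.0% of those of Trp53bp1 and 10.2% of those of H2afx, so their values are less certain. Perp, a desmosomal death gene, was near the limit in WT, with 2, 2 and 12 counts. All Tumor libraries (2.28, 4.43 and 3.06 CPM) were above WT, without a call (2.07 ± 0.78 on the log2 scale, adjusted p = 0.0854). DESeq2 called this rise, as did fits without a filter, with the replicate block or without Rel. Trp53inp1 was at 64.2 to 145 CPM in WT and 46.8 to 80.6 CPM in Tumor (-0.77 ± 0.37, adjusted p = 0.170). It was called lower without a filter. Eda2r, a death receptor, had at most 15 counts in any library. By length the highest members in WT were Ccng1 and Cdkn1a, at 109 and 94.4 RPKM (CPM per kb of exon), and the lowest with any counts was Eda2r at 0.225 RPKM.

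The genes of the pathway outside the 35 were mixed. Of 22 other p53 target genes tested in Tumor against WT, 6 were lower and 3 higher, and their median log2 difference was -0.13 against 0.00 over all genes. Lower were Ak1 (-1.59 ± 0.29 on the log2 scale, adjusted p = 0.00231), an adenylate kinase, Cpt1c (-1.09 ± 0.20, adjusted p = 0.00231), a carnitine palmitoyltransferase best known from brain, and the apoptosis effector Bax (-0.79 ± 0.16, adjusted p = 0.00348). Higher was Dram1, a lysosomal gene of autophagy, whose mean was 0.686 CPM in WT and 15.6 CPM in Tumor (4.52 ± 0.40, adjusted p = 8.13e-06). Of 36 other repair and checkpoint genes, 3 were lower and 0 higher, among them the ligase of end joining Lig4 (-0.96 ± 0.24, adjusted p = 0.0149). The count of 3 was 0 without Tumor 3, without Tumor 4, with only the groups compared or with the replicate block, 1 without Tumor 1 or WT 3, 6 without Rel and 9 without WT 1. The counts of other p53 targets ranged from 4 to 7 lower and 2 to 6 higher as single libraries were left out, with 6 higher without WT 1. In the list of 20 genes of S phase and mitosis, 2 were lower, Aurka and Ccne1. In these same Tumor libraries, fibroblast markers and immediate early genes were higher than in WT. Of 10 myeloid markers 7 were tested, with 6 higher and 1 not called. Of 8 endothelial markers 6 were tested, with 5 higher and 1 lower. In WT, 2 of the fibroblast, 5 of the myeloid and 2 of the endothelial markers had no count in any library. These could pass the filter only through another group. The part of these lists in the differences of the members was not tested.

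**Figure D4:**
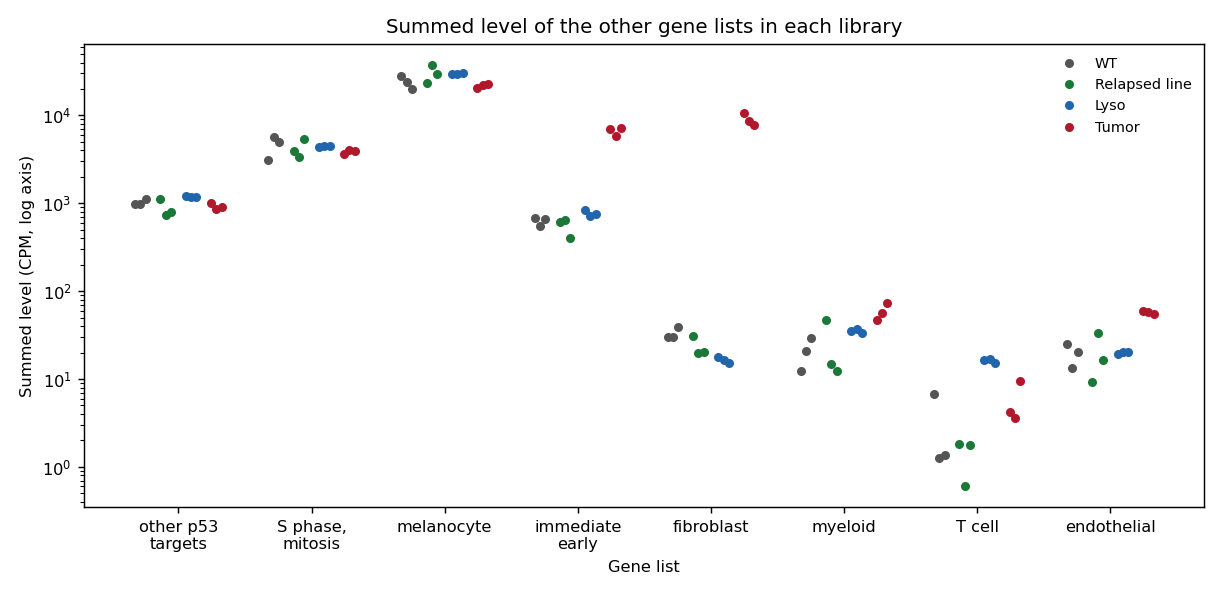
Summed level of 8 other gene lists in each library, in CPM on a log axis, by group. Fibroblast markers and immediate early genes are high in Tumor only, at 7707 to 10709 CPM and 5788 to 7220 CPM, T cell markers are highest in Lyso at 15.1 to 17.0 CPM, and melanocyte markers are of one order in all 12 libraries.

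Incubation with lysosomes was compared with WT next, and no member was called in either direction, beside 3.5% of all genes higher and 1.21% lower. At an unadjusted p under 0.05, 6 members differed, and DESeq2 called 1 higher (Gadd45b) and 0 lower. The smallest adjusted p was 0.0515, for Gadd45b. The median log2 difference of the 34 was -0.03 and their median absolute difference 0.28, against 0.23 over all genes. Standard errors of the members were 0.11 to 0.76 on the log2 scale with a median of 0.21, and differences of about that size were not detectable with 3 libraries a group. Among 22 other p53 targets, Pml, a nuclear body gene that interferon also induces, was the one called, at a mean of 57.5 CPM in WT and 139 CPM in Lyso (1.20 ± 0.31 on the log2 scale, adjusted p = 0.0438). No other p53 target was called in this comparison without any single Lyso or Tumor library, WT 1, WT 2 or Rel, with library size as the only scaling, with only the groups compared or with WT 3 as the only control, and 2 were called without ITF1 or WT 3. Among the immediate early genes 4 were higher and 1 lower in Lyso than in WT. Of 10 T cell markers, 4 were tested and 3 of these were higher. The summed level of the 10 was 15.1 to 17.0 CPM in Lyso and 1.27 to 6.79 CPM in WT. In WT, 9 of the 10 had no count in any library. Those could pass the filter only through another group, so the count of 3 is no separate support.

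Tumor and Lyso were then set against each other, which tests their difference directly. Here 7 members were lower and 3 higher in Tumor, beside 10.5% and 14.2% of all genes. Ccng1 (3.48-fold lower, adjusted p = 6.1e-05), Phlda3 (2.94-fold), Aen (2.14-fold), Zmat3 (2.08-fold), Ei24 (1.63-fold) and Tigar (1.3-fold) were lower, as was Cdkn1a. Btg2 (3.79-fold, adjusted p = 0.000543) and Plk2 (2.86-fold, adjusted p = 0.00169) were higher. Brca2 was higher as well, at 26.7, 40.7 and 39.5 CPM in Tumor and 25.5, 21.5 and 23.7 CPM in Lyso (0.60 ± 0.16 on the log2 scale, adjusted p = 0.0151). The comparison shares the Tumor libraries with the one against WT, so the calls are not independent of each other. Calls of Cdkn1a, Tigar and Brca2 were lost when single libraries were left out, with adjusted p of up to 0.103, 0.113 and 0.0839. These were each Lyso library, Tumor 3 and Tumor 4 for Cdkn1a, every Lyso and Tumor library for Tigar, and Lyso 2, Lyso 3, Tumor 3 and Tumor 4 for Brca2.

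The relapsed lines were compared with WT to ask which differences from the parental line were present after culture. No member was called, beside 0.0134% of all genes higher and 0.0268% lower, and 6 had an unadjusted p under 0.05. DESeq2 called 1 higher and 1 lower (Perp and Plk2). Perp came closest: it was at 7.76 CPM in ITF1, 6.47 in ITM and 27.2 in Rel, and at 1.13, 0.844 and 0.708 CPM in WT (4.12 ± 0.69 on the log2 scale, adjusted p = 0.0677). All lines were above WT, with 101 to 406 counts against 2 to 12.

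The 3 lines differed among themselves in some members, which a mean over them does not show. ITF1 held the highest level among the lines for 17 of the 34 members, beside 35.4% of all genes tested, Rel for 10 and ITM for 7. By role, ITF1 was highest for both Trp53 and Mdm2, for 7 of 9 growth arrest and 5 of 7 apoptosis genes, for 2 of 7 repair genes, 1 of 6 sensing genes and 0 of 3 metabolic genes; these are counts of few genes and were not tested. Cdkn1a was at 552 CPM in ITF1, 3.31 times the mean of the other lines, Mdm2 at 2.60 times, Trp53inp1 at 2.42 times (179 CPM against 61.1 in ITM and 87.5 in Rel), Polk at 2.07 times and Ccng1 at 1.64 times. Outside the members, 16 of the 22 other p53 targets were highest in ITF1, with a summed level of 1130 CPM against 742 in Rel and 797 in ITM. In contrast, 18 of the 20 S phase and mitosis genes were highest in ITM and 2 in ITF1, at summed levels of 5370 and 3894 CPM and of 3398 CPM in Rel. Brca1, which homologous recombination needs, was at 90.8 CPM in ITF1, 292 in ITM and 483 in Rel, the widest span of any member among the lines at 5.31-fold. Each line is 1 library, so these values have no replicate check.

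**Figure D5:**
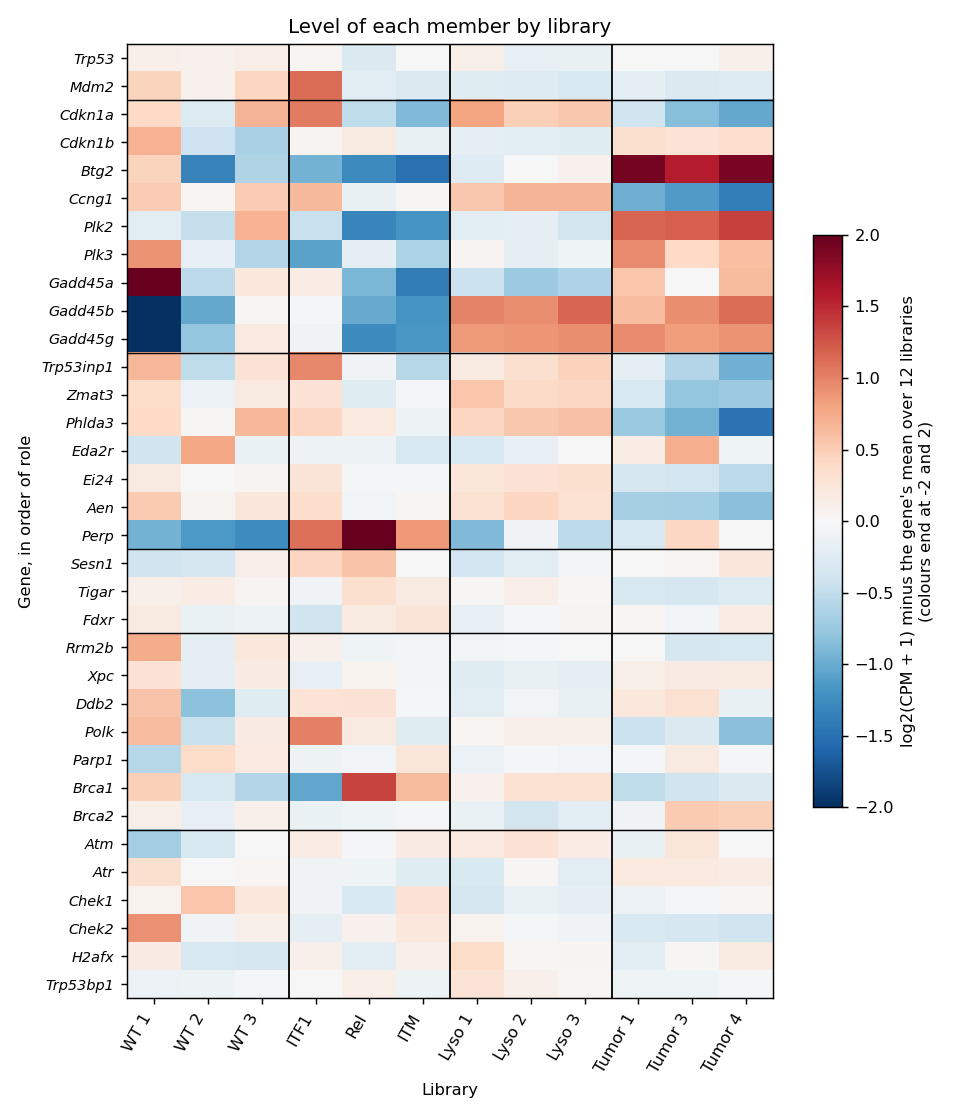
Level of the 34 members in each of the 12 libraries as log2(CPM + 1) minus the gene's mean, in order of role, with black lines between groups and roles. The Tumor columns are low in Ccng1, Zmat3, Phlda3 and Aen and high in Btg2 and Plk2, ITF1 is high in Mdm2, Cdkn1a, Trp53inp1 and Polk, and WT 1 stands apart in the Gadd45 genes.

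With the relapsed lines as the reference, Lyso had 3 members higher and 1 lower, beside 4.87% and 2.81% of all genes. Gadd45b (3.55-fold, adjusted p = 0.0191), Gadd45g (3.69-fold, adjusted p = 0.023) and Btg2 (2.49-fold, adjusted p = 0.0208) were higher, and each of these calls was lost without any single Lyso library or without Rel, with adjusted p of up to 0.0745, 0.0807 and 0.0839. Perp was lower (log2 difference -2.79 ± 0.52, adjusted p = 0.00621), and the difference was -1.83 without Rel (adjusted p = 0.0081). Tumor had 5 members higher and 7 lower than the lines, beside 11.8% and 7.74% of all genes. Higher were Btg2 (9.41-fold, adjusted p = 1.39e-05), Plk2 (4.67-fold), Gadd45g (3.68-fold), Gadd45b (3.24-fold) and Plk3 (2.51-fold). Lower were Perp (4.12-fold), Ccng1 (2.60-fold), Phlda3 (2.34-fold), Aen (1.83-fold), Zmat3 (1.55-fold), Ei24 (1.40-fold) and Tigar (1.38-fold). In Tumor against the lines the Perp difference was -1.09 on the log2 scale without Rel (adjusted p = 0.0561), and the call was also lost without Tumor 1 (adjusted p = 0.0768) or Tumor 4 (0.0715). Single libraries also decided the calls of Zmat3 (ITF1, Tumor 3 or Tumor 4), Gadd45b (Tumor 3 or Tumor 4), Plk3 (Tumor 1) and Ei24 (Tumor 4), with adjusted p of up to 0.0866, 0.0583, 0.0636 and 0.0527 without them.

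The comparisons of Tumor with WT, Lyso and the lines share the Tumor libraries, and their values are given side by side. The log2 difference of Ccng1 was -1.54, -1.80 and -1.38, that of Phlda3 -1.43, -1.56 and -1.23, and that of Aen -1.02, -1.10 and -0.87. For Btg2 it was 2.32, 1.92 and 3.23, and for Plk2 1.11, 1.52 and 2.22. Chek2 was below all 9 cultured libraries and was called against WT, not against Lyso (adjusted p = 0.264) or the lines (adjusted p = 0.205). In all, 7 members were lower and 2 higher in every Tumor library than in all 9 cultured libraries, beside 7.26% and 11.4% of all genes tested. Within groups, the median member varied 1.15-fold between the lowest and highest Lyso library, 1.22-fold in Tumor, 1.45-fold among the relapsed lines and 1.61-fold in WT.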

How the data were processed

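RNA-seq counts per gene were analysed in 12 libraries. The authors trimmed adaptors with fastp 0.19.6, aligned reads to GRCm38 with STAR 2.7.1a and deposited raw counts, with no normalization; the strand setting and annotation release are not given in the sources used here. By library, 36.2% to 39.4% of reads were counted on genes and 43.5% to 44.8% on no feature, and the 4 rows that name no gene were left out. Symbols and positions came from GENCODE vM21 (GRCm38), matching 54079 of 54232 identifiers. Reads mapping to several genes are not in such counts, so genes with close copies may be underestimated.

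Counts were tested with edgeR 4.0.16 in R 4.3.3 (TMM, filterByExpr by group, glmQLFit and glmQLFTest, one fit of 12 libraries, Benjamini-Hochberg over 14924 genes); the threshold of 0.05 is that of the study's methods. Standard errors are the absolute log2 difference over the square root of F. CPM use TMM effective library sizes, and limits are 3 counts, for counting error only. With 3 libraries a group, an exact permutation test of 1 gene cannot go below p = 0.1. On simulated counts for Lyso against WT, 63 of 100 genes changed 2-fold and 98 of 100 changed 4-fold were recovered, over 14537 genes, and 8 other genes were called. The changed genes were drawn from those with higher counts and simulated with the spread typical of their level. Recovery of low members or of members with a wide spread may be poorer.

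The 35 genes and all lists were chosen with earlier results of these data known. Every member is accounted for; values in each library are given for Trp53, Mdm2, Cdkn1a, Cdkn2a, the Gadd45 genes and each member called against WT, and for others, such as Perp, Brca1 and Brca2, because of their values. Of each other list, at most 4 genes a comparison are named, by adjusted p. Alternatives were DESeq2 1.42.0, other scalings, filters, sets of libraries, a fold minimum and a replicate block. No pairing of libraries by replicate number was seen across groups. Same-numbered libraries correlated at -0.008 to 0.065 in their deviations from group means, and other pairs at -0.053 to 0.059. WT 1 and WT 2 hold few counts, so this check could miss a pairing. No pair of libraries agreed within sampling noise, the closest, Lyso 2 and Lyso 3, having a chi-square per degree of freedom of 1.55.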

Additional observations from a re-analysis of the deposited data

How the results depend on the processing

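No member changed sign among the 36 called differences under any alternative tried. Of 666 recomputed values for these, 598 stayed past the threshold and 68 did not, and 20 of the 36 calls were never lost. In Tumor against WT, the calls of Btg2, Ccng1, Zmat3, Phlda3 and Aen held in all 19 alternatives. Plk2 was lost without Tumor 4, without WT 2 and with the replicate block (adjusted p of up to 0.0566). Gadd45b was lost in 5, among them without Tumor 3, Tumor 4 or WT 2 (up to 0.0982), Ei24 in 2 (without Tumor 4 and with the block, up to 0.0605), Tigar in 7 (up to 0.0927) and Chek2 in 10 (up to 0.114). Of the 24 members not called in Tumor against WT, 11 were called in some alternative. Cdkn1b, Plk3, Gadd45g, Perp and Brca2 were called higher. Mdm2, Cdkn1a, Gadd45a, Trp53inp1, Rrm2b and Polk were called lower.

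Counts of called members moved as follows. DESeq2 called 1 higher in Lyso against WT, 5 higher in Tumor against WT, and 1 higher and 1 lower in the relapsed lines against WT. Without a filter on low counts, 2 were higher and 2 lower in Lyso against WT, 5 higher and 12 lower in Tumor against WT, 1 higher and 2 lower in the relapsed lines against WT, 5 higher in Tumor against Lyso, 2 lower in Lyso against the lines and 12 lower in Tumor against the lines. Fitting only the groups compared gave 1 lower in Lyso against WT, and 8 higher and 11 lower in Tumor against Lyso. A fold minimum of 1 on the log2 scale left 3 lower in Tumor against WT and 3 against the lines. WT 3 as the only control gave 1 lower in the relapsed lines against WT. The cause of these shifts was not tested.

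Leaving out 1 library at a time gave 0 to 3 higher (the most without WT 3) and 0 to 1 lower in Lyso against WT, 1 to 5 higher and 4 to 9 lower in Tumor against WT (the fewest higher without Tumor 4 or WT 2, the most without WT 1; the fewest lower without Tumor 4), 0 to 1 in each direction in the lines against WT, 2 to 8 higher and 5 to 8 lower in Tumor against Lyso (the most higher without WT 1), 0 to 6 higher and 1 to 2 lower in Lyso against the lines (the most higher without ITF1, 0 without Rel or any Lyso library), and 4 to 6 higher and 4 to 11 lower in Tumor against the lines (the most lower without ITM, the fewest without Tumor 4). With the replicate block over WT, Lyso and Tumor, 1 was higher and 1 lower in Lyso against WT, 2 higher and 6 lower in Tumor against WT, and 2 higher and 6 lower in Tumor against Lyso. The relapsed lines carry no replicate number, and no paired fit was made for them. Depth limits the low members most: in WT 1, 3 counts are 1.7 CPM, and Gadd45b, Gadd45g, Eda2r and Perp were at or under that level there.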
